A study of Mus musculus with 6 samples.

Results

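The elastic fibre and microfibril genes studied here are Eln, Fbn1, Fbn2, Fbln1, Fbln2, Fbln5, Efemp2, Mfap2, Mfap5 and Mfap4. They were taken by gene symbol from a table of raw RNA-seq counts, and 10 of the 43074 symbols in that table matched. The libraries came from C2C12, a wild-type mouse myoblast line whose cells fuse into myotubes after a change of medium. The 3 groups were untreated cells at day 0, cells kept in horse serum medium for 4 days with DMSO as vehicle, and cells kept in the same medium for 4 days with 1 mM 4-phenylbutyric acid (4-PBA), which is known as a chemical chaperone and as a histone deacetylase inhibitor. Each group had 2 libraries, all with the same batch number, and the labels do not say whether these were separate cultures. The p-values therefore measure only the spread between these libraries, which may be technical. Day 0 and day 4 differ in time, medium and vehicle together, and these cannot be told apart. All libraries came from this 1 cell line.

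Elastic fibres give skin, lung, vessels and the connective tissue of muscle their recoil. Fibrillins polymerise into microfibrils, which act as a scaffold on which tropoelastin, the product of Eln, is deposited and then crosslinked by lysyl oxidases. Fibulins help load elastin and its crosslinking enzymes onto microfibrils, the microfibril-associated glycoproteins bind along fibrillin, and microfibrils also hold latent TGF-beta through the latent TGF-beta binding proteins. Many matrices hold microfibrils without elastin.

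Total counts per library lay between 47908926 and 74697397. Of 8 muscle markers, 7 were higher in each of the 4 day 4 libraries than in both day 0 libraries, and Myf5, a myoblast factor, was lower (50.4 and 49.98 CPM at day 0, 22.6 to 24.5 CPM at day 4; CPM are counts scaled to a common library size, after TMM). Myod1 stood at 95.8 and 99.1 CPM at day 0 and between 108 and 116 CPM at day 4. Myog stood at 7.94 and 7.85 CPM at day 0 and between 277 and 297 CPM in the 4 libraries of day 4, and Myh3 went from 19.1 and 18.7 CPM to between 1950 and 2085 CPM. Of the endothelial, macrophage and adipocyte marker lists, 5 of 6 genes each were under 1 CPM in every library. The exceptions were Tek (at most 2.14 CPM), Cd68 (at most 5.47 CPM) and Pparg (at most 18.8 CPM). Of 6 osteoblast markers, 4 were under 1 CPM in every library. Runx2 stood between 51.6 and 81.0 CPM, and Dmp1 reached 3.12 CPM. The summed level of 10 fibroblast markers was 2172 to 2203 CPM at day 0, 6058 to 6163 CPM with DMSO and 5983 to 6053 CPM with 4-PBA, carried mostly by the collagens Col1a1 and Col3a1. Of these 10, 7 were higher in every day 4 library than in both day 0 libraries, among them Ly6a (159 and 166 CPM at day 0, 313 to 323 CPM at day 4), Cd34 (36.1 and 35.6 against 44.3 to 50.8 CPM) and Pi16 (0.206 and 0.342 against 7.02 to 8.11 CPM). Pdgfra was lower (14.03 and 13.7 CPM at day 0, 13.4 CPM or less at day 4), Thy1 was at 0.0412 CPM or less and Tcf21 had no counts. The summed level of 6 smooth muscle markers was 1128 to 1144, 2883 to 3104 and 3224 to 3245 CPM in the same order. Its rise was carried mostly by Acta2 and Tagln. Of these 6, 4 were higher in every day 4 library than in both day 0 libraries. Myh11 (0.306 CPM or less) and Smtn (164 to 178 CPM) overlapped between the days. The part of these markers in the results below was not tested. In such bulk libraries, a change in the number of cells of one kind and a change in the RNA per cell cannot be told apart.

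Microfibril transcripts far outnumbered elastin transcripts in these cells. Levels of different genes were compared as CPM per kilobase of merged exons. At day 0 the order was Fbln2 at 54.7 ± 0.108 CPM per kb (SD, n = 2), Efemp2 at 38.3 ± 0.593, Fbn1 at 27.0 ± 0.655, Fbln1 at 19.2 ± 0.915 and Fbln5 at 4.14 ± 0.246 CPM per kb. Mfap5 (0.333 ± 0.0699) and Mfap2 (0.238 ± 0.124 CPM per kb) followed, with libraries that overlapped each other. Eln (0.0127 ± 0.0029), Fbn2 (0.0100 ± 0.00689) and Mfap4 (0.00397 ± 0.00562 CPM per kb) came last, with libraries of neighbours in that order overlapping.

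At day 4 the order had changed. With DMSO, Fbn1 led at 126 ± 3.26 CPM per kb, ahead of Fbln2 (69.6 ± 4.75), Efemp2 (25.7 ± 3.04), Fbln5 (11.4 ± 0.839), Mfap5 (6.80 ± 0.325) and Fbln1 (4.99 ± 0.191 CPM per kb). Mfap2 (0.496 ± 0.170) and Mfap4 (0.443 ± 0.0643 CPM per kb) overlapped, and Eln (0.152 ± 0.0174) and Fbn2 (0.00653 ± 0.00112 CPM per kb) were lowest. The order was the same with 4-PBA, where Fbn1 stood at 126 ± 0.0451 and Eln at 0.249 ± 0.0325 CPM per kb. The level of Fbn1 per kb was 2481 and 1854 times that of Eln in the day 0 libraries, 914 and 749.6 times in the DMSO libraries, and 557 and 463 times in the 4-PBA libraries. The day 0 ratios rest on 2 and 4 counts of Eln.

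**Figure D1:**
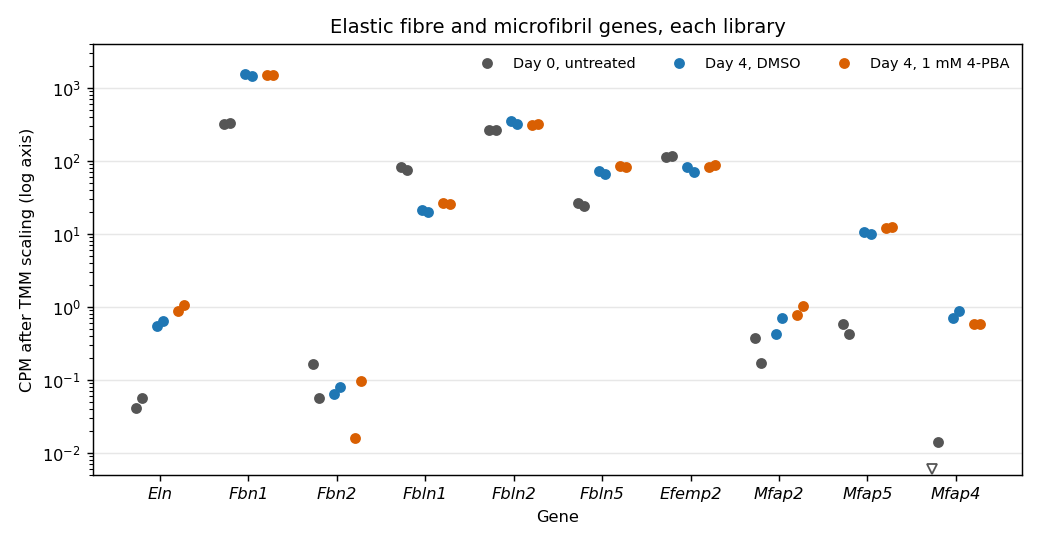
CPM after TMM scaling (log axis) of each gene in each library, 1 point per library, in grey for day 0, blue for day 4 with DMSO and orange for day 4 with 4-PBA; the open triangle marks the library with no count of Mfap4. Fbn1 rises from 318 and 329 CPM at day 0 to at least 1480 CPM in each day 4 library, and Fbn2 stays under 0.165 CPM throughout.

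The summed level of the 10 genes was 144 CPM per kb in each day 0 library, 254 and 237 with DMSO and 248 and 251 CPM per kb with 4-PBA. Fbn1 made up 18.4% and 19.1% of that sum at day 0 and between 50.04% and 52.1% in the 4 libraries of day 4. Without Fbn1, the sums were 117 and 116 CPM per kb in untreated cells, 126 and 113 in the DMSO libraries, and 122 and 126 in the 4-PBA libraries, so that the DMSO libraries lay on both sides of the day 0 libraries.

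**Figure D2:**
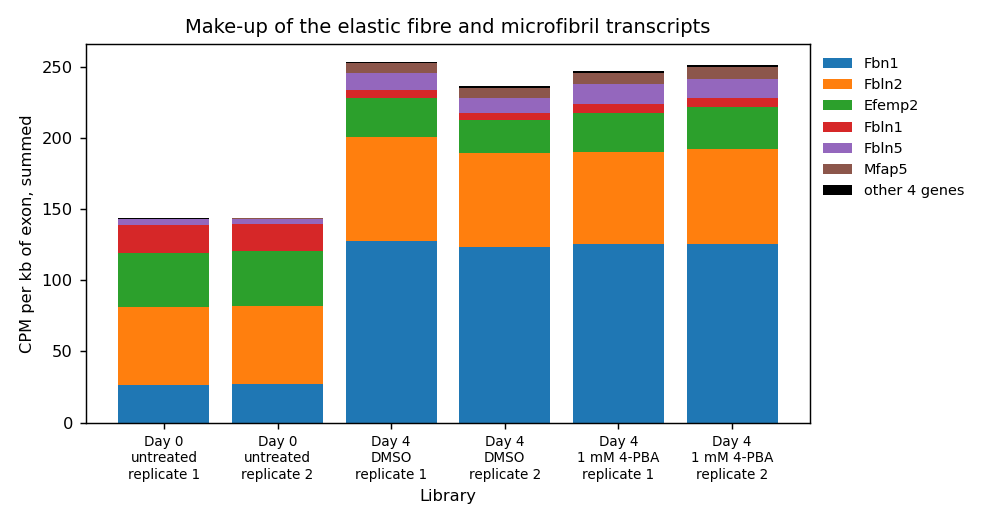
Summed CPM per kb of exon in each of the 6 libraries, stacked by gene. The Fbn1 layer grows from 26.5 and 27.4 CPM per kb at day 0 to between 123 and 128 CPM per kb at day 4, while the Fbln1 layer shrinks from 19.8 and 18.5 to between 4.86 and 6.37 CPM per kb.

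Differentiation without the drug was read from the DMSO libraries of day 4 against those of day 0. Fbn1, Eln, the fibulins Fbln2 and Fbln5 and the microfibril-associated genes Mfap2, Mfap4 and Mfap5 rose, while the fibulins Fbln1 and Efemp2 fell. Changes were tested with edgeR over all genes and called at an adjusted p-value under 0.05. The filter on low counts removed Fbn2, and 9 of the 10 genes were tested. Of these, 7 were called higher and 2 lower, while 66.3% of the 17433 tested genes were called in this comparison, 33.8% higher and 32.6% lower. Eln and Mfap4 passed the filter only through their day 4 libraries, which favoured a higher level at day 4. Their calls therefore add nothing to this count. Without them, 5 of 7 genes were called higher and 2 lower. Of all genes that passed in day 0 and in day 4 libraries, 33.8% were higher and 36.2% lower.

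Fbn1 encodes fibrillin-1, the backbone of adult microfibrils. Its level was 318 and 329 CPM in the day 0 libraries and 1535 and 1480 CPM with DMSO. The groups lay far apart, with a log2 fold change of 2.22 (SE 0.0293, adjusted p 4.83e-36), a 4.66-fold rise. Exons of Fbn1 share 2442 bases with Gm9913 on the opposite strand, whose own counts were 25 or fewer in every library. Fbn2 encodes fibrillin-2, the fibrillin known mainly from development. Its exons share 129 bases with the lincRNA Gm26507 on the opposite strand, which was not among the symbols of the count table. The counts of Fbn2 were 8 and 4 in untreated cells, 4 and 6 in the DMSO libraries, and 1 and 6 in the 4-PBA libraries, and at this depth no difference was detectable. The ratio of DMSO to day 0, from summed counts scaled for library size, was 0.721, with an exact 95% interval for counting error alone of 0.279 to 1.82.

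Eln had 2 and 4 counts at day 0 and 34 and 47 counts with DMSO, or 0.0412 and 0.0570 against 0.539 and 0.634 CPM. The groups did not overlap, and the ratio of DMSO to day 0, scaled in the same way, was 11.7, with an exact 95% counting interval of 5.14 to 32.8 (edgeR log2 fold change 3.49, SE 0.562, adjusted p 1.36e-06). This p-value and the lack of overlap are no independent support, because Eln passed the filter only through its day 4 libraries. With DMSO, Eln stayed under 1 CPM. An antisense transcript, Gm30003, overlaps 152 bases of Eln exons and had 9 or fewer counts in every library.

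The fibulins moved in both directions. Fbln5 encodes fibulin-5, which binds tropoelastin and guides it onto microfibrils. It stood at 26.2 and 24.1 CPM at day 0 and at 72.9 and 65.7 CPM with DMSO, a log2 fold change of 1.47 (SE 0.0534, adjusted p 3.65e-22). Fbln2 encodes fibulin-2, a large fibulin found in basement membranes and elastic fibres. Its levels of 261 and 262 CPM at day 0 and 349 and 317 CPM with DMSO also did not overlap, for a smaller log2 fold change of 0.35 (SE 0.0358, adjusted p 2.01e-09).

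Fbln1 encodes fibulin-1, a component of elastic fibres and basement membranes that binds fibronectin. It stood at 81.3 and 76.0 CPM at day 0 and at 21.0 and 19.9 CPM with DMSO. This was the larger of the falls, with a log2 fold change of -1.94 (SE 0.0542, adjusted p 1.66e-26). Efemp2 encodes fibulin-4, which brings lysyl oxidase to tropoelastin. It fell from 114 and 117 CPM to 83.7 and 70.8 CPM, a log2 fold change of -0.58 (SE 0.0725, adjusted p 1.06e-04). The per-kb level of Fbln5 was 0.218 and 0.214 times that of Fbln1 at day 0, and 2.34 and 2.23 times that of Fbln1 with DMSO, so that the order of these fibulins turned over.

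Mfap5 and Mfap2 encode MAGP-2 and MAGP-1, small glycoproteins that bind fibrillin. Mfap5 had 0.576 and 0.427 CPM at day 0 and 10.6 and 9.89 CPM with DMSO, a 20.8-fold rise (log2 fold change 4.38, SE 0.163, adjusted p 8.31e-23). Mfap2 had 0.370 and 0.171 CPM at day 0 and 0.428 and 0.701 CPM with DMSO, groups that stood close to each other without overlap. Its log2 fold change of 1.13 (SE 0.444, adjusted p 0.0250) rested on 30 counts at day 0 in all. It was not called by the DESeq2 Wald test (adjusted p 0.0714), without day 0 replicate 2 (log2 fold change 0.62, adjusted p 0.308) or without DMSO replicate 2 (0.72, adjusted p 0.270), and it was 1.72 without day 0 replicate 1; over all alternatives its adjusted p lay between 0.00796 and 0.308.

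Mfap4 encodes a fibrinogen-related protein that binds elastin and fibrillin. It had no count and 1 count in the day 0 libraries, where 3 counts would be 0.0617 and 0.0427 CPM, and 45 and 65 counts with DMSO (0.713 and 0.876 CPM). The scaled ratio of DMSO to day 0 was 95.2, with an exact 95% counting interval of 16.7 to 3794 (edgeR adjusted p 5.95e-09). Mfap4, too, passed the filter only through day 4, so this p-value is no independent support for the ratio. The size is bounded only loosely, and leaving out day 0 replicate 2, the library with the 1 count, moved the fitted log2 fold change from 6.27 to 8.63. Mfap4 exons share 89 bases with Mapk7 on the opposite strand, whose counts were between 1956 and 3026. Mapk7 itself had 2046 and 3026 counts at day 0 and 2296 and 2588 with DMSO.

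**Figure D3:**
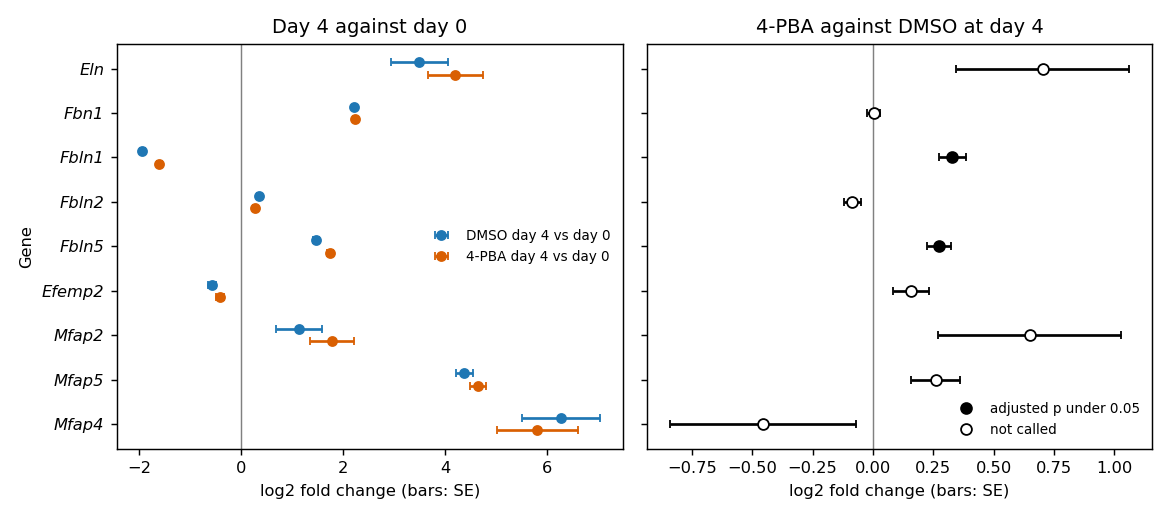
log2 fold changes of the 9 tested genes with bars for their SE: left, day 4 with DMSO (blue) and with 4-PBA (orange) against day 0; right, 4-PBA against DMSO at day 4, filled where called at an adjusted p-value under 0.05. On the left 7 genes lie above 0 and Fbln1 and Efemp2 below in both comparisons, and on the right Fbln1 (0.33) and Fbln5 (0.27) are the filled points.

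The effect of the drug itself was read from the 4-PBA and DMSO libraries, both of day 4. Fbln1 and Fbln5 rose with 4-PBA, by 25.6% and 20.9%, and Fbn1 was not called. These 2 of 9 tested genes were called, both higher, while 4.90% of all tested genes were called, 2.13% higher and 2.78% lower. At an unadjusted p under 0.05 there were 4 of the 9 (3 higher and 1 lower), against 16.7% of all tested genes. The median log2 fold change of the 9 was 0.26, and that of all tested genes was 0.0021.

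Fbln1 stood at 21.0 and 19.9 CPM with DMSO and at 26.1 and 25.3 CPM with 4-PBA, so both treated libraries were above both controls. Its log2 fold change was 0.33 (SE 0.0571, adjusted p 2.87e-04) and ranged from 0.29 to 0.37 over fits that each omitted 1 library. Fbln5 stood at 72.9 and 65.7 CPM with DMSO and at 84.4 and 83.0 CPM with 4-PBA, again without overlap. Its log2 fold change was 0.27 (SE 0.0487, adjusted p 4.50e-04), between 0.20 and 0.35 with 1 library left out. These fibulins had moved in opposite directions between day 0 and DMSO, and with 4-PBA the per-kb level of Fbln5 was 2.18 and 2.22 times that of Fbln1.

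The promoter windows of these genes and of Fbn1, the most abundant of the genes at day 4, are shown because the title of the study names Egr1 and NF-κB, and with them the window of Efemp2 that held a match to the NF-κB site part. RefSeq windows on GRCm38.p6 (250 bases before to 50 after a transcript start) were matched for 6 of the 10 genes, by symbol, 11 windows in all. Windows of a single chromosome were left out for these genes, but not from the shares over all windows. A gene without a window here may therefore have had one there. Capitals mark the GC box GGGCGG, the Egr1 site forms GCGTGGGCG and GCGGGGGCG, the NF-κB site part GGNNNTTCC and the TATA box TATAAA, on either strand. The windows are Fbn1 (chr2:125506389-125506688, - strand), Fbln1 (chr15:85205758-85206057, + strand), Fbln5 (chr12:101819070-101819369, - strand) and Efemp2 (chr19:5474440-5474739, + strand).
Fbn1: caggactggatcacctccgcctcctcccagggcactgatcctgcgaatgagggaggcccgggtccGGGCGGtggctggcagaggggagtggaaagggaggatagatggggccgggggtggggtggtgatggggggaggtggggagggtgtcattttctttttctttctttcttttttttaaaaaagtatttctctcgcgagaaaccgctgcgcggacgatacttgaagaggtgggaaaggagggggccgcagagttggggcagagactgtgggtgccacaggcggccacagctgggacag
Fbln1: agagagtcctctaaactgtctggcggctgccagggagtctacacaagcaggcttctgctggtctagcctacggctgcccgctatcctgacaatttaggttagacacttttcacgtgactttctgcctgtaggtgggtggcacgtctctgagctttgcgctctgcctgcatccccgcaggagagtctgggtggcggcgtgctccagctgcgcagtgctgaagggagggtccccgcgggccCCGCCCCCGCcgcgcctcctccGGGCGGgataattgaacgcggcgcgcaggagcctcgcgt
Fbln5: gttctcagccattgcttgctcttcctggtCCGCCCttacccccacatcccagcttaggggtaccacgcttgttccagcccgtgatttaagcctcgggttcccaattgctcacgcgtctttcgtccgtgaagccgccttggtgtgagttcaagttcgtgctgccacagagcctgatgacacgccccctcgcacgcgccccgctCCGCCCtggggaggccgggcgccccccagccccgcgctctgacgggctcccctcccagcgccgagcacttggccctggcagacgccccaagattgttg
Efemp2: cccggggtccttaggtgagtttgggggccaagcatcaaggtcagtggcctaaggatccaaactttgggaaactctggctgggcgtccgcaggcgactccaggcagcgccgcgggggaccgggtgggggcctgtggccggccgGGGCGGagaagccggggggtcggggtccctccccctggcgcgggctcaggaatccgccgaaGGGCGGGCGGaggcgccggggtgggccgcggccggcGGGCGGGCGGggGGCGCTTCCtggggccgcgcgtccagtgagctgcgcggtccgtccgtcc

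The window shown held 1 GC box for Fbn1, 2 each for Fbln1 and Fbln5 and 5 for Efemp2, a motif found in 35.7% of all 32851 windows of that length. The Fbln1 window shown held 1 match to the second Egr1 form, which overlaps one of its GC boxes, and 2.91% of all windows hold that form. Another Fbln1 window, which starts upstream and overlaps this one, held neither that form nor a GC box, and another Fbln5 window held no GC box. The NF-κB part (18.5% of all windows) occurred once in the Efemp2 window shown and once in another Efemp2 window that overlaps it and holds 7 GC boxes, and in none of the other windows of the 6 genes. The first Egr1 form (0.612% of all windows) and the TATA box (13.6%) were not among the letters of any of the 11 windows. The SMAD motif CAGACA (21.0% of all windows) occurred once in the Fbln1 window shown, and the E-box CANNTG (72.3%) occurred once in that of Fbn1 and 2 times each in those of Fbln1 and Fbln5; these are not in capitals. The data hold no measure of binding at these sites.

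The other genes were not called between 4-PBA and DMSO. Fbn1 stood at 1535 and 1480 CPM with DMSO and at 1510 CPM in both 4-PBA libraries, a log2 fold change of 0.0027 (SE 0.0278, adjusted p 0.980). Its 95% interval, -0.054 to 0.059, bounds the difference. Fbln2, with 349 and 317 CPM against 309 and 318 CPM, overlapped between groups (log2 fold change -0.086, SE 0.0356, adjusted p 0.194). It was called lower without DMSO replicate 2 (-0.15, adjusted p 3.10e-04), in a range of adjusted p over alternatives up to 0.880.

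Efemp2 stood at 83.7 and 70.8 CPM with DMSO and at 83.2 and 89.0 CPM with 4-PBA, also with overlap. Its log2 fold change of 0.16 (SE 0.0730, adjusted p 0.338) moved with the control libraries: omitting DMSO replicate 1 gave 0.28, which was called (adjusted p 4.78e-07), and omitting DMSO replicate 2 gave 0.042. It was also called when every gene with at least 1 count was kept (adjusted p 0.00433), in a range up to 0.733. Mfap5 stood at 10.6 and 9.89 CPM against 12.2 and 12.3 CPM, groups that did not overlap, but the difference did not pass the test (log2 fold change 0.26, 95% interval 0.053 to 0.47, adjusted p 0.154).

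The genes near the detection limit were uncertain. Eln had 34 and 47 counts with DMSO and 54 and 65 with 4-PBA, and both libraries were higher with the drug. Its log2 fold change was 0.70 (95% interval -0.029 to 1.44, adjusted p 0.327), and the ratio of the summed counts, scaled for library size, was 1.62 with a counting interval of 1.21 to 2.18. Mfap2 had 27 and 52 counts against 48 and 63 (log2 fold change 0.65, SE 0.378, adjusted p 0.411), and leaving out 1 library moved it between 0.35 and 1.06. Mfap4 had 45 and 65 counts against 36 in each 4-PBA library (log2 fold change -0.46, 95% interval -1.24 to 0.33, adjusted p 0.626). The scaled ratios of summed counts were 1.55 for Mfap2 (counting interval 1.15 to 2.10) and 0.724 for Mfap4 (0.530 to 0.983). These counting intervals cover counting error only, for Eln as well.

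**Figure D4:**
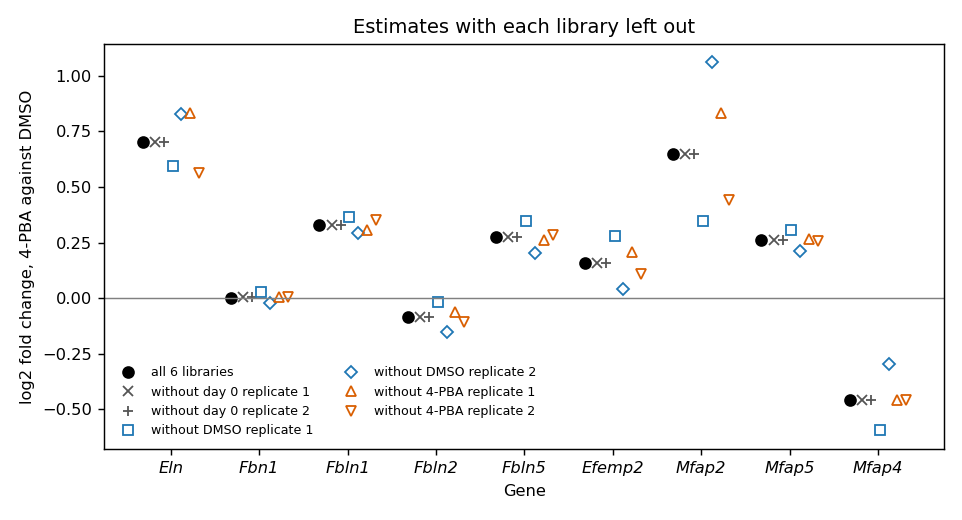
log2 fold changes of 4-PBA against DMSO for the 9 tested genes, with all 6 libraries (black) and with each library left out (grey day 0, blue DMSO, orange 4-PBA). Fbln1 and Fbln5 stay above 0.20 in each case, Efemp2 runs from 0.042 to 0.28, and Fbn1 lies between -0.022 and 0.028, on both sides of 0.

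Differentiation under the drug was read from the 4-PBA libraries against day 0, which are shared with the comparisons above. Again 7 of the 9 tested genes were called higher and 2 lower, while 65.6% of all tested genes were called, 33.2% higher and 32.4% lower. Eln and Mfap4 again passed the filter only through day 4. Without them, 5 of 7 genes were higher and 2 lower. Of all genes that passed in day 0 and in day 4 libraries, 33.4% were higher and 36% lower. Fbln1 fell by 1.61 on the log2 scale (SE 0.0534, adjusted p 2.76e-24) and Efemp2 fell by 0.42 (SE 0.0724, adjusted p 8.42e-04). Fbn1 rose by 2.22 (SE 0.0293), Fbln5 by 1.74 (SE 0.0533), Fbln2 by 0.26 (SE 0.0358), Mfap5 by 4.64 (SE 0.161) and Mfap2 by 1.78 (SE 0.430, adjusted p 4.66e-04) on the same scale. The ratio of summed counts, scaled for library size, was 19.0 for Eln (counting interval 8.46 to 52.7) and 68.9 for Mfap4 (11.98 to 2758).

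A list of 60 other genes linked to elastic fibres was compared in the same fits, and 58 of them were tested. Beside assembly genes it held 8 elastase or inhibitor genes, 3 elastin receptor genes, 8 integrin or adhesion genes and 3 TGF-beta ligand genes. Its counts are therefore not counts of assembly genes alone. The list was chosen with earlier results of these data known, so the counts only describe it. With DMSO against day 0, 42 of the 58 were called higher and 9 lower, with a median log2 fold change of 0.63 against 0.023 over all tested genes, of which 33.8% were called higher and 32.6% lower. Of the 58, Itga8, Mmp9, Mmp12 and Pcsk5 passed the filter only through day 4, which favoured a higher level there. The higher calls of Itga8, Mmp9 and Mmp12 therefore add nothing to this count, and Pcsk5 was not called. Without these 4 genes, 39 of 54 were higher and 9 lower (median 0.59), while of all genes that passed in day 0 and in day 4 libraries 33.8% were higher and 36.2% lower. With 4-PBA against day 0, 43 of the 58 were higher and 8 lower (median 0.60 against 0.018), and 40 and 8 of 54 without the same 4 genes; 33.2% and 32.4% of all tested genes were called higher and lower.

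The crosslinking enzymes rose with one exception. Lysyl oxidases oxidise lysines of tropoelastin and collagen. The level of Lox was 694 ± 10.6 CPM at day 0 and 890 ± 5.47 CPM with DMSO (SD, n = 2), which is 0.36 higher on the log2 scale (SE 0.0274, adjusted p 7.21e-14). Loxl1, whose enzyme is known for elastin crosslinking, rose from 104 ± 0.544 to 301 ± 4.68 CPM (1.54, SE 0.0319). Loxl1 was among the 3 genes of the list with the smallest adjusted p-values, with Mmp2, a gelatinase (1.94, SE 0.0392), and Hspg2, which encodes perlecan (1.30, SE 0.0265). Those 3 genes also led with 4-PBA against day 0. In all, 4 of 5 crosslinking enzyme genes were called higher, and Loxl3 lower, while 33.8% of all tested genes were called higher and 32.6% lower.

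The latent TGF-beta binding proteins are relatives of the fibrillins and attach to microfibrils. Ltbp1 had 249 ± 2.19 CPM at day 0 and fell to 92.9 ± 5.33 CPM with DMSO (-1.42 on the log2 scale, SE 0.0368, adjusted p 1.77e-27), while Ltbp2 (0.57, SE 0.0350), Ltbp3 (0.51, SE 0.0304) and Ltbp4 (0.88, SE 0.0403) rose. Emilin1, an elastic fibre glycoprotein gene, fell from 18.2 ± 0.368 to 12.2 ± 0.939 CPM (-0.58, SE 0.0820), as did Emilin2. Efemp1, the gene of fibulin-3, rose from 1.48 ± 0.0840 to 2.32 ± 0.0337 CPM (0.65, SE 0.203, adjusted p 0.00527). All 9 genes of the ADAMTS and ADAMTS-like group, several of which bind fibrillin, were called higher, and so were the 3 TGF-beta ligand genes, where 33.8% of all tested genes were called higher.

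With 4-PBA against DMSO, 11 of the 58 list genes were called, 7 higher and 4 lower, while 4.90% of all tested genes were called, 2.13% higher and 2.78% lower. The median log2 fold change was 0.022 against 0.0021 over all genes. The smallest adjusted p-values belonged to Fn1, the fibronectin gene (-0.21, SE 0.0259, adjusted p 1.83e-06), Loxl3 (-0.20, SE 0.0415, adjusted p 0.00218) and Timp3, a metalloprotease inhibitor (0.14, SE 0.0333, adjusted p 0.00972). Loxl1 rose from 301 ± 4.68 to 325 ± 3.44 CPM (0.11, SE 0.0305, adjusted p 0.0238) and Ltbp4 from 129 ± 8.71 to 145 ± 1.04 CPM (0.16, SE 0.0389, adjusted p 0.00972). Lox (0.041, SE 0.0273, adjusted p 0.491), Ltbp1 (0.023), Ltbp2 (-0.021), Ltbp3 (0.064), Emilin1 (0.053) and Efemp1 (-0.069) were not called. The count of 11 fell to 7 with the DESeq2 Wald test (4 higher and 3 lower), while the count over all tested genes fell from 855 to 682. With 1 library left out, the count and the balance of directions were not stable for this list. Over all tested genes they changed as well.

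**Figure D5:**
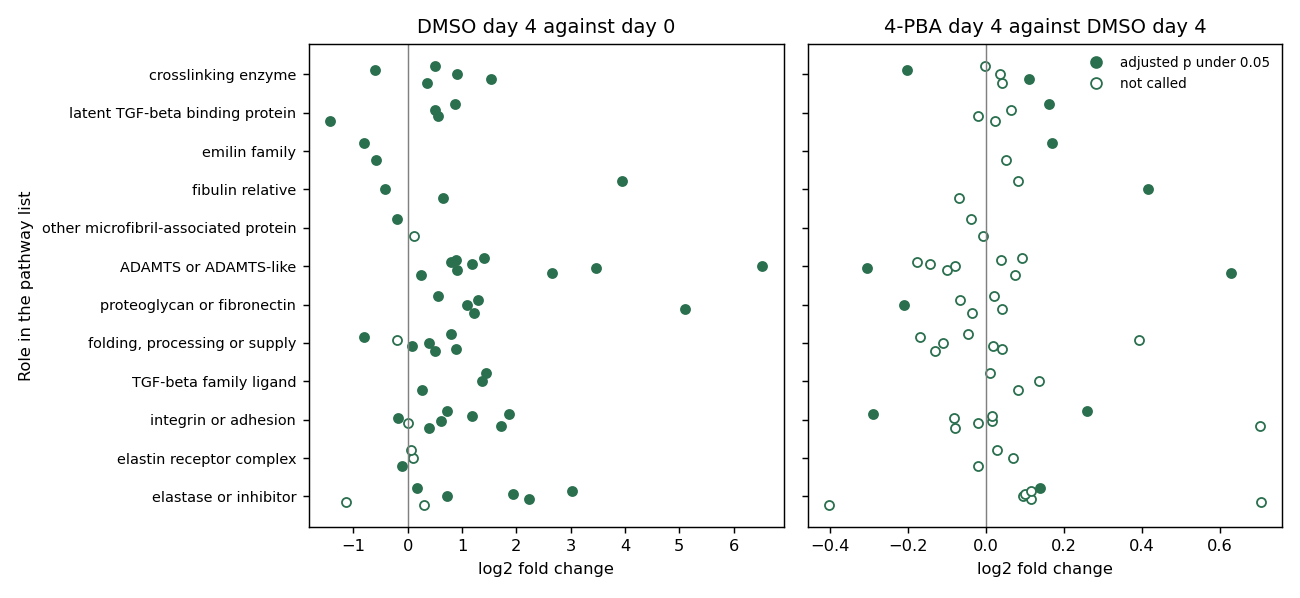
log2 fold changes of the 58 tested list genes by role, 1 point per gene, filled where called: left, DMSO at day 4 against day 0; right, 4-PBA against DMSO. On the left 42 filled points lie above 0 and 9 below; on the right 7 lie above 0 and 4 below.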

How the data were processed

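RNA sequencing of 6 C2C12 libraries was analysed from 1 table of raw counts per gene symbol, which the authors deposited with 1 column per library and without normalisation. The library kit was directional, per the labels' protocols. The genome build was GRCm39, per the submitters' processing notes; the aligner, the counting tool and the use of strand are not given in the sources used here, so overlapping genes on the opposite strand are named beside the results.

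The genes and lists were chosen with earlier results of these data known. Counts were fitted with edgeR 4.0.16 in R 4.3.3: filterByExpr by group, TMM scaling, and robust glmQLFit over all 6 libraries with a mean per group (3 residual degrees of freedom, common biological variation 3.74%). The spread of each gene was moderated towards that of the other genes, with a median of 30.4 prior degrees of freedom. For most genes the p-values and intervals therefore rest mainly on a spread shared over genes. The quasi-likelihood F test was adjusted by Benjamini-Hochberg over the 17433 tested genes, with calls under 0.05. SEs were derived from F and the log2 fold change, and 95% intervals are not adjusted. With 2 libraries against 2, an exact permutation test cannot go below p = 0.333. Replicates differed by more than sampling noise (chi-square per degree of freedom 3.98 to 7.15), so counting intervals cover counting error only. Exon lengths and overlaps came from GENCODE M21 (GRCm38), so no gene coordinates are given. Other settings tried were scaling by DESeq2 size factors or by library size alone, other count filters, the DESeq2 1.42.0 Wald test, limma-voom (limma 3.58.1), the 4 libraries compared, a replicate block and leaving out each library. The text names all 10 genes, 8 partners fixed by name, and the 3 list genes with the smallest adjusted p in each comparison; any other gene was chosen after its values were seen. The scripts were tested on simulated data. Figures used Python 3.11.15 and matplotlib 3.10.9.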

Additional observations from a re-analysis of the deposited data

How the results depend on the processing

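The directions and calls of Fbn1, Fbln1, Fbln2, Fbln5, Efemp2 and Mfap5 against day 0 were the same under the alternatives run; Mfap2 with DMSO lost its call under 3 of them, given above. Eln and Mfap4 passed the filter only through day 4, so their calls against day 0, which the counts below include, say nothing about stability. Fbln1 and Fbln5 were called higher with 4-PBA than with DMSO under each of them. With any 1 library left out, the log2 fold change of Fbn1 with DMSO against day 0 ranged from 2.19 to 2.25. In the same fits it ranged from -1.99 to -1.90 for Fbln1 and from 0.62 to 1.72 for Mfap2. The log2 fold change of Fbn1 between 4-PBA and DMSO was 0.0027 with all libraries, ranged from -0.022 to 0.028 with 1 left out, and turned to -0.022 without DMSO replicate 2; the cause was not tested. Between 4-PBA and DMSO, the DESeq2 Wald test called 7 of the list of 60 genes instead of 11, and 682 of all tested genes instead of 855. Leaving out 1 library gave 3 to 13 of that list and 295 to 1194 of all genes instead of 855; the lowest counts came without a 4-PBA library, and without 4-PBA replicate 1 there were 341. Libraries with the same replicate number did not deviate together (correlations across genes of -0.028, -0.0031 and -0.012 between pairs of groups). A replicate block called 9 genes with DMSO against day 0, 2 between 4-PBA and DMSO and 9 with 4-PBA against day 0, the same numbers as without it. Of all 17433 tested genes, it called 11403 with DMSO against day 0 and 768 between 4-PBA and DMSO. Depth limits Eln, Fbn2, Mfap2 and Mfap4, which had 119 or fewer counts per group.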

Other observations

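Outside the rule for named genes, the following list genes were chosen after their values were seen. Adamtsl2, whose product binds fibrillin-1 and latent TGF-beta binding protein, stood at 0.443 CPM at day 0 and 37.4 CPM with DMSO, a log2 fold change of 6.52 (SE 0.151, edgeR adjusted p 1.72e-19). Hmcn1, which encodes the fibulin relative hemicentin-1, went from 1.52 to 23.2 CPM (3.94, SE 0.108), and Dcn, the decorin gene, from 8.15 to 281 CPM (5.11, SE 0.0601). Among the elastin receptor genes Glb1 (0.10, adjusted p 0.0707) and Neu1 (0.058, adjusted p 0.384) were not called with DMSO against day 0, and Ctsa was called lower (-0.10, SE 0.0333).

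Of the 9691 tested genes with a mean of at least 10 CPM, those whose log2 CPM ran most closely with Fbln5 over the 6 libraries (Pearson's r of at least 0.999, as a description) were Nherf2, Prelp and Ccn3, and with Fbln1 they were Slc25a1, Uevld and Cnot3. The 6 libraries are 3 groups of 2, and r within groups was not computed.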
